A study of Mus musculus with 10 samples.

Results

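Pttg1, the gene for securin, was described across the immune cells of the mouse brain, as 1 of 31053 genes in the count matrix. It was picked because its counts fell in microglia of Nlrp3 KO libraries, so its level in Nlrp3 KO against WT cells is given here as a description, with no test. CD45+ cells were sorted from whole brains and profiled with 10x Genomics 3' single-cell RNA sequencing, in 10 libraries. The 4 genotypes were WT, Nlrp3 KO (deletion of Nlrp3 in the whole body), APP/PS1 (a transgenic model of amyloid pathology) and Nlrp3 KO APP/PS1, and mice were 3 and 9 months old in all genotypes and also 6 months old in WT and Nlrp3 KO. Littermates were used, each library held the cells of 3 pooled mice (2 males and 1 female), and each genotype and age had 1 library. Actinomycin D, an inhibitor of transcription, was present during dissociation in every group. Below, Nlrp3 WT denotes the 5 libraries with Nlrp3 (WT and APP/PS1) and Nlrp3 KO the 5 without it, and a pair is a Nlrp3 KO library with the Nlrp3 WT library matched to it by age and APP/PS1 status. The deposited annotation put each age in a batch of its own (3 batches), which leaves the effects of age and batch inseparable (they cannot be told apart), while both libraries of a pair shared a batch.

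Securin is the inhibitor of separase, the protease that opens the cohesin rings holding sister chromatids together. It accumulates in G2 phase and early mitosis, is bound by the anaphase-promoting complex (APC/C) with its activators Cdc20 and Cdh1 (gene Fzr1), and is then degraded, which frees separase at the onset of anaphase. In dividing cells its mRNA is known to peak in G2 and M phase together with cyclins and mitotic kinases. Microglia, the resident macrophages of the brain, divide rarely in the adult, and a small cluster of proliferating microglia (PM) is usually found among them. Nlrp3 is a sensor that assembles an inflammasome.

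Pttg1 (ENSMUSG00000020415) lies on the minus strand of chromosome 11, bases 43420250 to 43426251 (GRCm38, the same assembly as mm10, with GENCODE annotation). Its annotated transcripts number 10, and 8 of them have an annotated coding sequence, 7 as protein-coding transcripts. The transcript ENSMUST00000020687 has 6 exons and 600 coding bases, giving a protein of 199 residues. The stretch below is shown because it codes for the destruction box, the motif by which APC/C recognizes securin. A search for RxxLxxxN (x for any residue) placed the motif at residues 58 to 65, in exon 3 at chr11:43424791-43424814. The line gives coding bases 151 to 216 of the minus strand, 5′ to 3′, chr11:43424770-43424835, with the 24 bases of the motif in capitals.
Pttg1 exon 3: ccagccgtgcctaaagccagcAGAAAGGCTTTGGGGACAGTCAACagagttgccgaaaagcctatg
No other annotated gene had transcripts sharing more than 8 of the 2104 31-base words of the Pttg1 transcripts.

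The libraries held 45472 annotated cells, 40547 of them microglia and 4925 other CD45+ cells, with 9357431 to 35107144 UMIs (unique molecular identifiers, 1 per captured mRNA) in the microglia of a library. Nlrp3 was counted at 34.4 to 53.7 CPM (UMIs scaled to a common library total) in the 5 Nlrp3 WT libraries and at 0 UMIs in all 5 Nlrp3 KO libraries, as their labels say. Of the cell barcodes, 246 (0.544%) occurred in more than 1 library. The median percent of mitochondrial UMIs over all annotated cells of a library overlapped between genotypes. It was 2.74 to 3.79 in Nlrp3 WT and 2.44 to 3.95 in Nlrp3 KO libraries.

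In all microglia together, Pttg1 was several-fold lower in every Nlrp3 KO library than in its Nlrp3 WT partner. The WT libraries had 47.6, 54.9 and 38.5 CPM at 3, 6 and 9 months, and the APP/PS1 libraries 44.9 and 40.1 CPM at 3 and 9 months. The Nlrp3 KO libraries had 8.48, 3.76 and 12.2 CPM at 3, 6 and 9 months, and the Nlrp3 KO APP/PS1 libraries 10.8 and 12.1 CPM at 3 and 9 months. The groups did not overlap, and the library of Nlrp3 KO at 6 months was the lowest of all. The means were 45.2 ± 6.55 CPM (SD, n = 5) and 9.45 ± 3.51 CPM (SD, n = 5), and the log2 ratio of the pairs averaged -2.36 (SD 0.90, range -3.86 to -1.66). The gene was chosen by these values, so they carry no test.

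The same gap appeared in the share of cells with a Pttg1 UMI, which was 15.9 to 23.0% in Nlrp3 WT and 1.18 to 5.02% in Nlrp3 KO microglia. Thinning each cell to 1500 UMIs gave shares of 5.48 to 7.44% and 0.438 to 1.75%, so the gap was also present at equal depth. Outside PM, 19.5% of Nlrp3 WT cells were positive with 1.17 UMIs per positive cell, against 3.07% and 1.08 in Nlrp3 KO. In counts this sparse, fewer cells with the transcript and fewer transcripts per cell cannot be told apart. No cell type certain to lack Pttg1 was at hand, so the background from free RNA was not measured. The lowest level in the most numerous state was 1.46 CPM, in homeostatic microglia of Nlrp3 KO mice at 6 months.

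Pttg1 was lower in all 5 pairs in each of the 5 non-proliferating states of the authors' annotation: homeostatic microglia (HM), disease-associated microglia (DAM), microglia in transition to DAM (TM), interferon-response microglia (IRM) and microglia with an immediate-early gene signature (IEG). The mean log2 ratios were -3.20 (SD 1.36) in HM, -2.98 (SD 1.91) in DAM, -2.85 (SD 0.997) in TM, -3.12 (SD 0.83) in IEG and -2.25 (SD 0.81) in IRM. DAM rested on few cells in some libraries, with 0 Pttg1 UMIs in 37 cells of Nlrp3 KO at 3 months (a limit of 14.7 CPM for 3 counts) and in 59 cells at 6 months (a limit of 8.54 CPM).

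IRM stood above HM in all 10 libraries. In Nlrp3 WT libraries the IRM level was 73.4 to 79.0 CPM, against 34.98 to 54.6 CPM in HM, with no overlap. In Nlrp3 KO libraries it was 6.43 to 32.0 CPM in IRM against 1.46 to 9.87 CPM in HM, higher in each library although the ranges overlapped. DAM exceeded HM in 5, TM in 4 and IEG in 2 of the 10 libraries.

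PM departed from the other states. The PM cells were checked by their markers: Mki67, a nuclear protein of cycling cells, stood at 499 CPM in Nlrp3 WT and 539 CPM in Nlrp3 KO PM, against 0.192 and 0.259 CPM in the other microglia, while the microglial receptor gene P2ry12 was present in both (2555 and 2626 CPM in PM). PM made up 1.15 to 2.68% of Nlrp3 WT and 1.63 to 3.76% of Nlrp3 KO microglia, a mean difference of 0.292 percentage points (SD 0.605, higher in 3 of 5 pairs, p = 0.375 in an exact two-sided sign-flip test, whose smallest possible p with 5 pairs is 0.0625). In Nlrp3 WT PM, Pttg1 was at 37.5, 40.6 and 61.2 CPM in WT at 3, 6 and 9 months and at 36.9 and 39.8 CPM in APP/PS1 at 3 and 9 months. In Nlrp3 KO PM it was at 50.7, 74.0 and 50.2 CPM at 3, 6 and 9 months, and at 72.7 and 157 CPM in Nlrp3 KO APP/PS1 at 3 and 9 months. These ranges overlapped, and the Nlrp3 KO library was below its partner in only 1 of the 5 pairs, that at 9 months without APP/PS1.

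**Figure D1:**
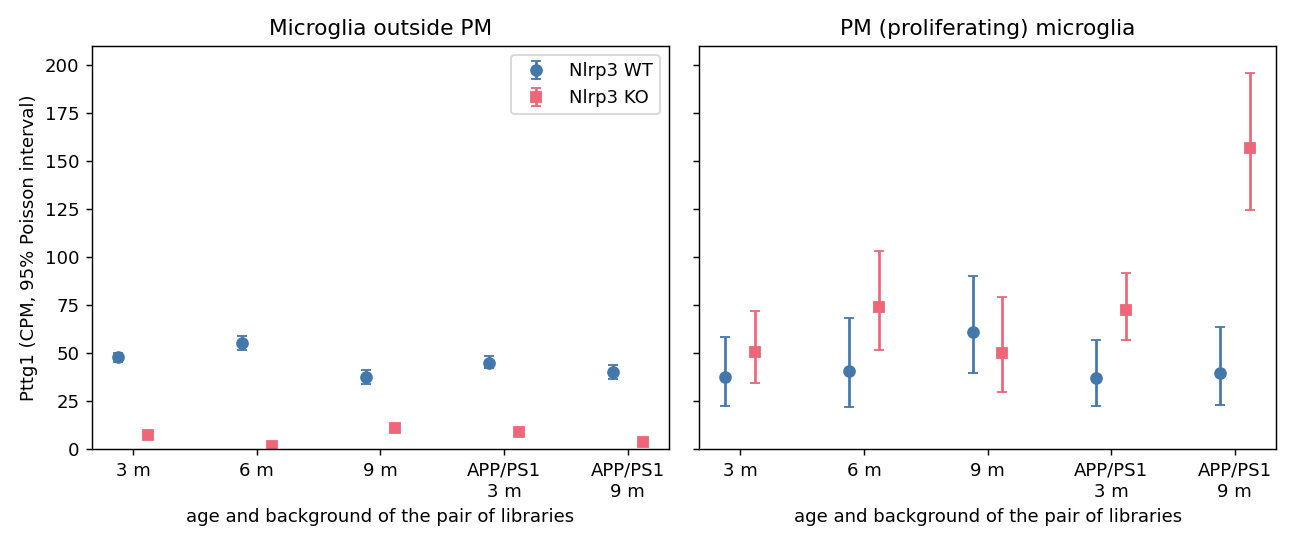
Pttg1 level (CPM) in PM and in all other microglia of each of the 10 libraries, coloured by Nlrp3 genotype, with the library as the unit. Nlrp3 KO libraries lie at 1.87 to 11.1 CPM outside PM and at 50.2 to 157 CPM in PM, while Nlrp3 WT libraries lie at 37.6 to 55.2 and 36.9 to 61.2 CPM.

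In the other microglia the levels were 37.6 to 55.2 CPM in Nlrp3 WT and 1.87 to 11.1 CPM in Nlrp3 KO. Within a library, the log2 ratio of PM to other microglia was -0.31, -0.39 and 0.73 in WT at 3, 6 and 9 months and -0.25 and 0.03 in APP/PS1 at 3 and 9 months, a mean of -0.04 (SD 0.46, above 0 in 2 of 5). It was 2.77, 5.30 and 2.21 in Nlrp3 KO and 3.02 and 5.34 in Nlrp3 KO APP/PS1, a mean of 3.73 (SD 1.48, above 0 in 5 of 5). For Mki67 the mean ratios were 11.01 (SD 1.01) and 10.81 (SD 1.12). The Nlrp3 KO effect on Pttg1 was 3.63 ± 0.30 (SE) log2 units higher in PM than in the other microglia in an edgeR model with both cell classes, and 4.91 higher with cells of at least 3 G2/M genes in place of PM. No p is given for it, since its effect outside PM is the contrast that chose the gene. In that model 7 of 12066 genes were called (0.058%), where a call means an adjusted p under 0.05 with a change of over 1 log2 unit in either direction in edgeR's quasi-likelihood test. Pttg1 is counted among them, and nothing is read from that. PM held 95 of 4210 Pttg1 UMIs (2.26%) of Nlrp3 WT microglia but 234 of 954 (24.5%) of Nlrp3 KO microglia, where the UMIs outside PM fell from 4115 to 720 by the contrast that chose the gene.

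In PM, the pooled share of positive cells was similar in both genotypes, and positive cells held more UMIs in Nlrp3 KO. The pooled share of PM cells with a Pttg1 UMI was 22.1% in Nlrp3 WT (72 of 326 cells, 95% exact interval 17.7 to 27.0) and 19.4% in Nlrp3 KO (90 of 464, interval 15.9 to 23.3), with intervals for counting error only. By library it was 14.5 to 29.3% in Nlrp3 WT and 12.7 to 16.9% in Nlrp3 KO except for Nlrp3 KO APP/PS1 at 9 months, at 42.4%. Positive cells had 1.32 UMIs on average in Nlrp3 WT and 2.60 in Nlrp3 KO. Cells with at least 2 Pttg1 UMIs were 19 of 72 positive PM cells (26.4%) in Nlrp3 WT and 53 of 90 (58.9%) in Nlrp3 KO, and the highest count in a cell was 5 and 13. Outside PM the order was the opposite, with 529 of 3508 positive cells (15.1%) at 2 or more UMIs in Nlrp3 WT and 46 of 668 (6.89%) in Nlrp3 KO. Cells of PM were somewhat deeper in Nlrp3 WT (median 6124 against 5548 UMIs), and thinned to 1500 UMIs the PM shares were 7.36 and 7.11% and the pooled PM levels 51.1 CPM in Nlrp3 WT and 58.9 CPM in Nlrp3 KO, against 42.6 and 80.1 CPM with all UMIs.

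PM mixes phases of the cell cycle, so microglia were also sorted by the cycle genes they expressed, whatever their state. The G2/M class had UMIs of at least 3 of 20 G2/M genes (such as Mki67, Top2a, Ccnb1, Cdc20 and Plk1), the S class had UMIs of at least 2 of 14 genes of DNA replication and fewer than 3 of the G2/M genes, and the low class had none of either. Pttg1 was in neither list. Of the 269 G2/M cells, 255 were annotated as PM. In the S class, 365 cells were annotated as PM and 1133 as HM. The S gene Mcm3 stood at 34.6 and 33.9 CPM in Nlrp3 WT and Nlrp3 KO microglia outside PM. The S class is therefore not read as cells in S phase. In Nlrp3 KO the G2/M class had 150, 247 and 142 CPM of Pttg1 at 3, 6 and 9 months and 189 and 206 CPM in Nlrp3 KO APP/PS1 at 3 and 9 months. In Nlrp3 WT it had 26.1, 43.4 and 85.5 CPM at 3, 6 and 9 months and 27.5 and 34.5 CPM in APP/PS1 at 3 and 9 months. The groups did not overlap, and here Nlrp3 KO was the higher one in all 5 pairs (mean log2 ratio 2.13, range 0.74 to 2.65).

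**Figure D2:**
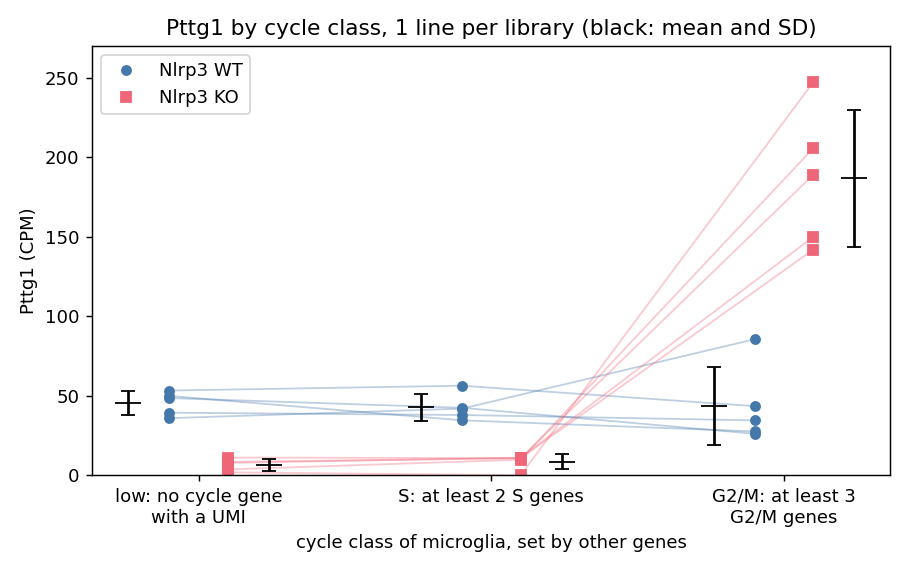
Pttg1 level (CPM) in the low, S and G2/M classes of microglia, with 1 line per library coloured by Nlrp3 genotype. The Nlrp3 KO lines stay low in the low and S classes (means 6.51 and 8.42 CPM) and end at 142 to 247 CPM in the G2/M class, whereas the Nlrp3 WT lines start and end near 43 to 45 CPM on average.

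In the S class the level was 42.6 ± 8.31 CPM (SD, n = 5) in Nlrp3 WT and 8.42 ± 4.73 CPM in Nlrp3 KO, lower in Nlrp3 KO in all 5 pairs. It was 45.4 ± 7.40 and 6.51 ± 3.77 CPM in the low class, and 43.4 ± 24.5 and 187 ± 43.0 CPM in the G2/M class. No Pttg1 UMI was found in the 148 S-class cells of Nlrp3 KO at 6 months, which allows up to 3.33 CPM. Depth was alike in the pooled G2/M cells, with a median of 7230 UMIs in Nlrp3 WT and 7190 in Nlrp3 KO. It differed within some pairs. The medians in Nlrp3 WT and Nlrp3 KO were 5174 and 7704 at 3 months and 5400.5 and 7897 at 6 months. At 9 months they were 7733.5 and 7555. With APP/PS1 they were 9145 and 6171.5 at 3 months and 8485 and 8250 at 9 months. The share of G2/M cells with a Pttg1 UMI was 25.0% of 120 cells (95% exact interval 17.5 to 33.7) in Nlrp3 WT and 55.7% of 149 cells (47.3 to 63.8) in Nlrp3 KO.

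Within a library, Pttg1 stood in the G2/M class against the low class at a mean log2 ratio of 2.50 over the 10 libraries (SD 2.92, above 0 in 6 of 10), and against the S class at 2.47 (SD 3.01, above 0 in 6 of 10). The S class of Nlrp3 KO at 6 months had 0 Pttg1 UMIs, so its ratio of 8.82 is set by the prior count of 0.5, and the mean without that library was 1.77. With every cell thinned to 1500 UMIs and a minimum of 2 G2/M genes, the mean ratio to the S class was 1.22. No p is given for these ratios, since the level of the low and S classes in Nlrp3 KO and Nlrp3 WT libraries is part of what chose the gene. The spread between libraries followed genotype. In Nlrp3 KO the ratio to the low class was above 0 in 5 of 5 libraries, at 4.30, 7.11 and 3.71 at 3, 6 and 9 months and 4.50 and 5.81 with APP/PS1 at 3 and 9 months, which is 13.1 to 138-fold. In Nlrp3 WT it was -0.76, -0.07 and 1.29 at 3, 6 and 9 months and -0.72 and -0.12 in APP/PS1, with a mean of -0.08 (SD 0.83).

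Fits of the same classes within each genotype were added after the values had been seen and are likewise descriptions. In edgeR the fold change of the G2/M class over the low class was 4.78 ± 0.21 log2 units (SE) in the Nlrp3 KO libraries and -0.16 ± 0.25 log2 units (SE) in the Nlrp3 WT libraries. The sign in Nlrp3 WT changed when WT or APP/PS1 at 3 months was left out (0.05 and 0.02). Without WT at 9 months, which held 20 of the 43 Pttg1 UMIs of the Nlrp3 WT G2/M class, the fold change was -0.71.

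Pttg1 was also set against the number of G2/M genes detected in a cell. Nlrp3 KO cells with 0, 1 and 2 of the G2/M genes had 7.09, 7.30 and 4.03 CPM of Pttg1 over the pooled libraries. Those with 3 to 5, 6 to 9 and at least 10 of them had 24.7, 123 and 226 CPM. Nlrp3 WT cells had 46.6, 43.3, 55.9, 16.3, 34.9 and 53.9 CPM in the same order, and the intervals of the first and last overlapped those of the bins between. The 3 to 5 bin held only 20 Nlrp3 KO and 27 Nlrp3 WT cells.

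**Figure D3:**
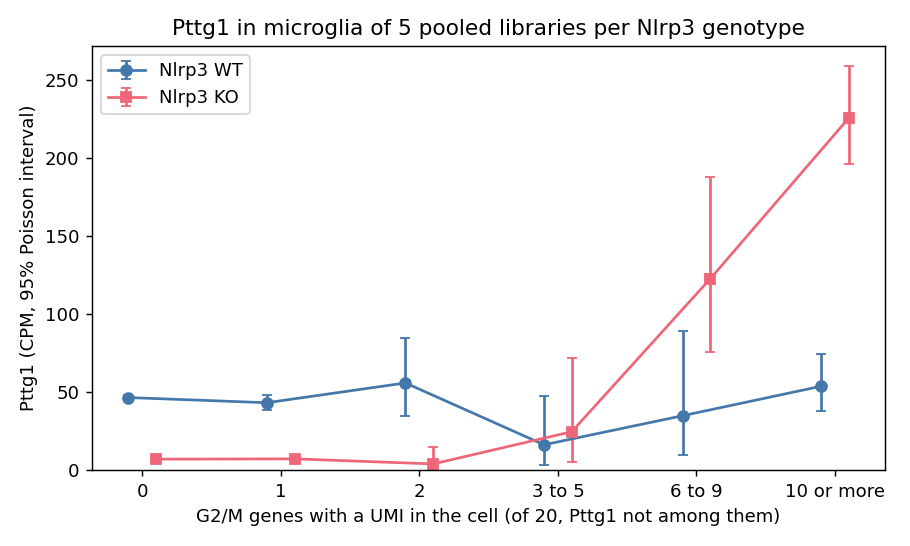
Pttg1 level (CPM, with exact 95% Poisson intervals for counting error) in microglia pooled by Nlrp3 genotype, against the number of 20 G2/M genes with a UMI in the cell. Nlrp3 KO rises from 7.09 CPM at 0 genes to 226 CPM at 10 or more, and Nlrp3 WT stands at 46.6 and 53.9 CPM at these ends.

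The other CD45+ cells come from the same libraries and are described in the same way, with no test. Pttg1 was at 44.8, 49.6 and 53.0 CPM in WT at 3, 6 and 9 months and 42.7 and 69.5 CPM in APP/PS1 at 3 and 9 months. It was at 28.0, 38.8 and 30.1 CPM in Nlrp3 KO and 26.9 and 16.2 CPM in Nlrp3 KO APP/PS1. The Nlrp3 KO libraries were all lower, with no overlap (log2 ratio -0.92 on average, 5 of 5 pairs, against -2.36 in microglia). This difference between microglia and other cells was not tested. Cells of the G2/M class held 268 of 467 Pttg1 UMIs of the other CD45+ cells in Nlrp3 KO, against 229 of 954 in Nlrp3 KO microglia. The part of such cells and of the mix of cell types in the ratios was not tested. Not every type was lower in Nlrp3 KO when libraries were pooled. In Nlrp3 KO and Nlrp3 WT, monocytes were at 63.2 and 42.9 CPM, neutrophils at 41.8 and 12.1 and the Precursors cluster at 59.5 and 17.8. These 3 types held 20 to 80 cells per genotype. B cells were at 63.0 and 31.6 CPM, while the more numerous T cells were at 34.6 and 84.7 and NK cells at 12.6 and 57.1. The pooled neutrophils came mostly from unpaired libraries. Nlrp3 KO APP/PS1 at 3 months gave 31 of 41 Nlrp3 KO neutrophils, and WT at 6 months 29 of 38 Nlrp3 WT ones. Monocytes had 88.1, 63.5 and 114 CPM in Nlrp3 KO and 34.0, 38.2 and 136 CPM in WT at 3, 6 and 9 months. With APP/PS1, in the same order, they had 52.5 and 24.9 CPM at 3 months. At 9 months they had 0 (1 cell) and 94.5 CPM (8 cells).

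The split by cycle genes had the same form in these cells. In the G2/M class Pttg1 was at 39.3 ± 21.02 CPM (SD, n = 5) in Nlrp3 WT and 113 ± 43.1 CPM in Nlrp3 KO, and Nlrp3 KO was higher in 4 of 5 pairs. In the pair with APP/PS1 at 9 months, 25 Nlrp3 WT cells had 65.5 CPM and 8 Nlrp3 KO cells 62.8 CPM, and the log2 ratio with a prior count of 0.5 was 0.05. In the low class it was at 54.9 ± 8.19 CPM in Nlrp3 WT and 14.5 ± 7.20 CPM in Nlrp3 KO, lower in 5 of 5 pairs (mean log2 ratio -2.002). The difference of the Nlrp3 KO effect between cells with and without G2/M genes was 3.69 ± 0.42 log2 units (SE), given without a p for the reason above. In that model 1 of 10581 genes was called (0.00945%), which is Pttg1 itself, and nothing is read from that.

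G2/M cells of several cell types, pooled over libraries, were set side by side, though some held few Pttg1 UMIs. G2/M B cells had 192 CPM in Nlrp3 KO (41 cells, 112 Pttg1 UMIs) and 32.3 CPM in Nlrp3 WT (18 cells, 10 UMIs). B cells of the low class had 4.41 and 29.2 CPM. Monocytes of the G2/M class had 175 CPM in Nlrp3 KO (15 cells, 41 UMIs) and 16.95 CPM in Nlrp3 WT (12 cells, 3 UMIs). T cells had 84.0 ± 9.42 CPM in Nlrp3 WT (SD, n = 5) and 45.0 ± 18.4 CPM in Nlrp3 KO, and those of the low class had 85.5 and 24.1 CPM. G2/M T cells had 79.3 CPM in Nlrp3 WT (41 cells) and 165 CPM in Nlrp3 KO (28 cells). In BAM (border-associated macrophages) and cDC2 the G2/M cells were few, with 24.5 and 18.2 CPM in Nlrp3 WT (4 and 9 cells, 1 and 2 UMIs). In Nlrp3 KO they had 17.6 and 14.6 CPM (5 cells and 1 UMI each).

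Ordered by mean level over libraries with at least 20 cells, Pttg1 in Nlrp3 WT was highest in T cells (84.0 CPM), IRM (75.9 ± 2.20) and NK cells (57.4 ± 7.77, n = 4). HM (43.3), PM (43.2), the BAM Lyve1 cluster of border-associated macrophages (41.7), the BAM cluster (41.1), DAM (40.8), TM (40.1), IEG (38.8) and B cells (32.3) followed. Only the steps from IRM to NK cells and from NK cells to HM exceeded the larger SD of the neighbours. In Nlrp3 KO the order began with PM (80.9 ± 44.1), B cells (73.9 ± 51.3, n = 3) and T cells (45.0), and only the step from T cells to IRM (17.5) exceeded the spread. The B cells of the Nlrp3 KO and Nlrp3 KO APP/PS1 libraries at 9 months, with 18 and 11 cells and 0 Pttg1 UMIs, fell under the minimum, and the other 3 Nlrp3 KO libraries had 58.1, 131 and 32.3 CPM, the highest at 6 months. Over all 5 libraries the B cell mean was 44.3 CPM in Nlrp3 KO, and over the pairs the log2 ratio in B cells averaged -0.49 (SD 2.10, lower in Nlrp3 KO in 3 of 5). NK cells (12.5), BAM (12.3), DAM (7.93), TM (5.89), HM (5.86), IEG (4.37) and BAM Lyve1 (3.89) came after.

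**Figure D4:**
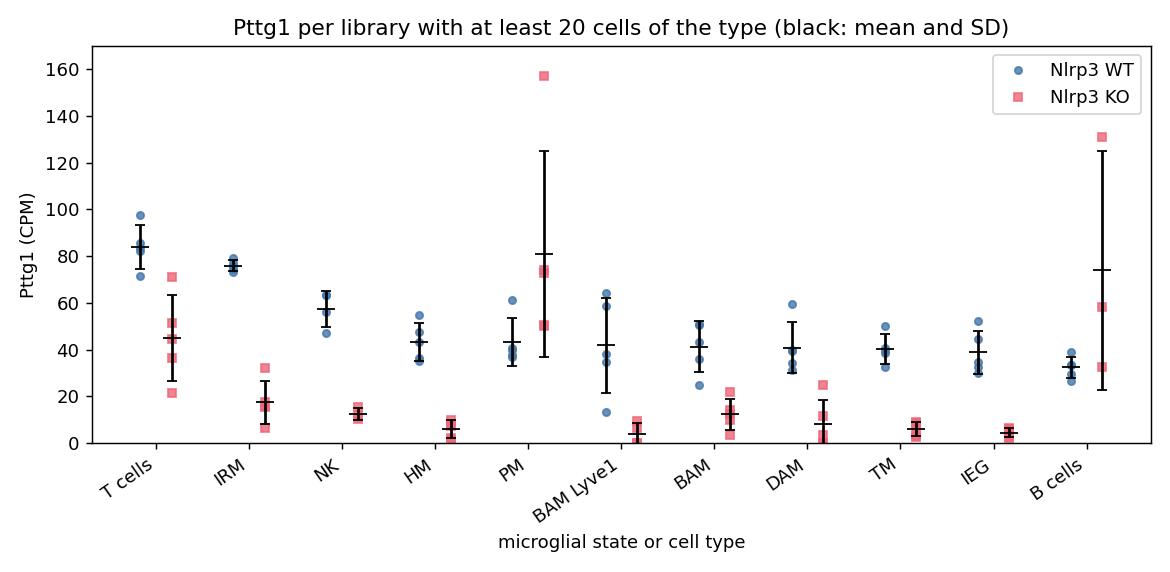
Mean Pttg1 level (CPM) by microglial state and cell type in Nlrp3 WT and Nlrp3 KO, with error bars for the SD over libraries with at least 20 cells and a point for each library. PM is the state in which the Nlrp3 KO mean (80.9 CPM) exceeds the Nlrp3 WT mean (43.2 CPM), B cells, with 3 Nlrp3 KO libraries of 32.3 to 131 CPM, are at 73.9 against 32.3 CPM, and the other types shown are lower in Nlrp3 KO.

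The APP/PS1 transgenes, a contrast that did not choose the gene, gave no call for Pttg1. Over the 4 pairs of APP/PS1 and non-diseased libraries of the same age and Nlrp3 genotype, the log2 fold change was 0.08 ± 0.08 (SE, adjusted p = 0.813 in edgeR's quasi-likelihood test), and 0.0407% of 12282 genes were called. It was -0.15 in HM alone and -0.10 without PM, neither called. Of 55 pathway genes tested in this contrast, 0 were called in edgeR or DESeq2. An unadjusted p under 0.05 in edgeR was found for 7 of them, against 918 of all 12282 genes. The 20 genes of the G2/M class were all above 0 (median log2 fold change 0.65), with 0 called in edgeR and 10 at an unadjusted p under 0.05, and their part in the value of Pttg1 was not tested. The Nlrp3 KO effect on Pttg1 differed between APP/PS1 and non-diseased microglia by 0.71 ± 0.52 log2 units (SE) in the same kind of fit, given without a p because it is built from the contrast that chose the gene. The difference was 0.21 without the non-diseased pair at 6 months, 1.10 without that at 9 months, 0.27 in HM alone and 0.25 without PM. In this model 0 of 12383 genes were called (0%, with 310 at an unadjusted p under 0.05). With 1 library per genotype and age, the spread between pools of the same mice was not measured apart. These p-values rest on how effects varied between pairs of libraries, which also differ in age, batch or genotype.

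The genes around securin in its pathway were also tested between Nlrp3 KO and Nlrp3 WT. The list held 57 genes: separase, a securin-binding protein, APC/C and its activators, cohesin, spindle checkpoint, mitotic kinases and cyclins, and G2/M regulators. None of the 56 tested was called between Nlrp3 KO and Nlrp3 WT microglia in edgeR or DESeq2. Few genes were called at all (3 of 12383 in edgeR, 0.0242%), and Pttg1 was not left out of the 3. At an unadjusted p under 0.05 in edgeR were 0 of the 56, against 574 of all 12383. The median log2 fold change of the 56 was 0.01, as over all genes (0.01). In PM, 0 of 55 were called by either tool, where 10 of 7804 genes were called in edgeR (0.128%). At an unadjusted p under 0.05 in edgeR were 3 of the 55, against 296 of all 7804. The median log2 fold change of the 55 was 0.04. Of the 20 genes that define the G2/M class, 0 were called in microglia (median log2 fold change 0.32, 19 above 0) and 0 in PM (median 0.18, 18 above 0).

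Espl1, which encodes separase, was at 16.5 ± 1.10 CPM in Nlrp3 WT and 17.5 ± 2.51 CPM in Nlrp3 KO microglia (SD, n = 5 each). Pttg1ip, whose product binds securin, was at 141 ± 7.67 and 139 ± 9.47 CPM. Fzr1 was at 29.3 ± 2.06 and 29.1 ± 1.99 CPM, and Cdc20 at 3.39 ± 2.42 and 3.88 ± 2.50 CPM. For the cohesin loader gene Nipbl the levels were 176 ± 11.03 and 180 ± 19.98 CPM, and for Bub3 of the spindle checkpoint 103 ± 6.53 and 104 ± 4.38 CPM.

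Between the G2/M and low classes, 37 of the 56 tested genes of the list were called in Nlrp3 KO (median log2 fold change 1.48), against 16.1% of all 10995 genes tested, and 35 in Nlrp3 WT (median 1.54), against 15.5% of 11294, but several of them define the class and had to differ. Espl1, which is not among the class genes, rose by 1.37 ± 0.26 log2 units (SE) in Nlrp3 KO (adjusted p = 2.05e-06 in edgeR) and by 1.57 ± 0.28 in Nlrp3 WT (adjusted p = 3.14e-07). Pttg1ip was not called, at -0.72 ± 0.16 (SE, adjusted p = 2.65e-05 in edgeR) in Nlrp3 KO and -0.68 ± 0.17 (adjusted p = 0.000275) in Nlrp3 WT, short of a change of 1 log2 unit.

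The genes most like Pttg1 over the microglia of the 10 libraries, by Pearson correlation of log2(CPM + 1), were Nlrp3 (r = 0.938), Lyrm7 (0.894), Hist3h2a (0.880), Tldc1 (0.877) and Zfp948 (0.864). The libraries form 2 genotype groups, so these values mainly order genes by their genotype gap. Nlrp3, Lyrm7 and Hist3h2a lie on chromosome 11, as Pttg1 does. Over 11 states and cell types of the pooled Nlrp3 WT libraries, the most alike were Igtp (r = 0.936), Mov10 (0.915), Tap2 (0.882), Trim14 (0.864) and Parp10 (0.861), among 10003 genes. Igtp and Tap2 are known as genes induced by interferon. The types shared libraries, so their levels were not independent.

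On chromosome 11, Pttg1 and Nlrp3 (bases 59541568 to 59566956) are 16.1 Mb apart. Of the 1030 genes tested on chromosome 11 between Nlrp3 KO and Nlrp3 WT microglia, 87 (8.45%) had an unadjusted p under 0.05 in edgeR, against 487 of 11353 (4.29%) on the other chromosomes. Pttg1 was left out of the next count, since this contrast chose it. Of the other genes, 4 had an adjusted p under 0.05 in edgeR, all on chromosome 11: Nlrp3, Irgm2 (log2 fold change -0.88), Hist3h2a (-1.38) and Grap (0.66), the last 3 within 2.09 Mb of Nlrp3. In the 18.3 Mb from Pttg1 to Grap, a span set by these genes and so only a description, 37 of 165 genes (22.4%) had an unadjusted p under 0.05, against 50 of 865 (5.78%) on the rest of the chromosome. Pttg1, which this contrast chose, and the deleted Nlrp3 are counted in the 87 and the 37, and nothing is read from that. The part of the DNA around the targeted locus in the level of Pttg1 was not tested. The nearest gene tested on one side, Slu7, 7.49 kb from Pttg1, was at 48.0 and 49.0 CPM in Nlrp3 WT and Nlrp3 KO microglia (log2 fold change 0.04, adjusted p = 0.939 in edgeR). On the other side Ccng1, 2665 kb away, was at 24.1 and 26.2 CPM (log2 fold change 0.10, adjusted p = 0.908).

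Each pool held cells of both sexes, which were told apart by UMIs of Xist or of Y-linked genes, a split chosen after the values had been seen. Outside PM, Pttg1 in Nlrp3 KO at 3 months was at 21.5 CPM in cells with Xist (95% Poisson interval 18.4 to 25.1) and 1.03 CPM in cells with Y-linked UMIs (0.548 to 1.76). In Nlrp3 KO at 9 months the order was the opposite, at 3.54 CPM (1.89 to 6.06) and 16.1 CPM (13.0 to 19.8). The same held in Nlrp3 KO APP/PS1 at 3 months, at 2.80 and 12.4 CPM, whereas the values were 3.07 and 1.49 CPM in Nlrp3 KO at 6 months and 3.49 and 4.62 CPM in Nlrp3 KO APP/PS1 at 9 months. The Nlrp3 WT libraries lay closer together, at 37.5 to 55.7 CPM with Xist and 32.4 to 56.1 CPM with Y-linked UMIs. The other CD45+ cells of the same pools, without those of the G2/M class, did not show gaps of this size at 3 and 9 months in Nlrp3 KO, at 19.5 and 15.3 CPM and at 21.4 and 24.9 CPM with Xist and Y-linked UMIs, while Nlrp3 KO APP/PS1 at 3 months had 5.42 and 14.6 CPM. Cells with Xist come from the 1 female of a pool, so sex and mouse cannot be told apart.

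**Figure D5:**
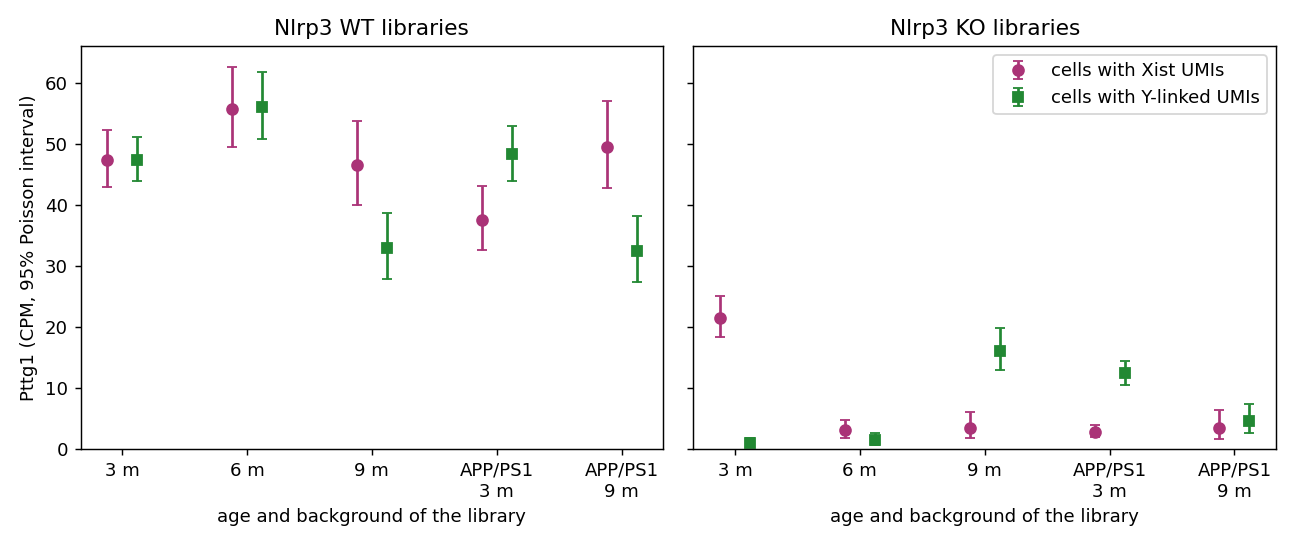
Pttg1 level (CPM, exact 95% Poisson intervals) outside PM in microglia with Xist UMIs and in those with Y-linked UMIs, for each library. The points of a library differ most in Nlrp3 KO at 3 months (21.5 and 1.03 CPM) and lie within 32.4 to 56.1 CPM in the Nlrp3 WT libraries.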

How the data were processed

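The authors mapped reads to mm10 with STAR in Cell Ranger (per the labels and methods, with no version in the sources used here), removed outlier cells and merged the libraries. The deposited matrix holds raw UMI counts. The deposited annotation gives each cell's library, state and type as text, the percent of mitochondrial UMIs, the fraction of ribosomal UMIs and a doublet score. A doublet score over 0.5 was found in 7.63% of microglia, which were kept in the values reported and left out in an alternative. The matrix had 52369 cells, of which 6897, under 2 names matching no sample label, were not used.

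Counts were summed per library and class of cells. CPM is the share of Pttg1 among the UMIs of those cells, scaled to a common total. Ratios used a prior count of 0.5. Fits across genes used edgeR 4.0.16 (TMM, filterByExpr, glmQLFit) in R 4.3.3 with pair as a term, or library where classes were compared within libraries, and Benjamini-Hochberg adjustment. DESeq2 1.42.0, other filters, thinned cells and leaving out each pair or library were the alternatives. The scripts were tested on simulated data. Pttg1, the gene lists and the tests were chosen with earlier results of these data known. Genes named besides Pttg1 were those of the pathway and cycle lists, Nlrp3 and the nearest tested neighbours. The 5 most correlated genes over libraries and over types were named too. Irgm2, Hist3h2a and Grap were named for an adjusted p under 0.05 between Nlrp3 KO and Nlrp3 WT microglia. P2ry12 was named as a marker of microglia and Xist as a marker of sex. Gene positions came from GENCODE for GRCm38. Reads come from the 3' end of transcripts, so isoforms were not told apart. Intervals cover counting error only.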

Additional observations from a re-analysis of the deposited data

Results flagged for a closer look

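Values of Pttg1 in 26 groups of 5 libraries were examined for a library far from the rest, and 3 groups had one, where chance gives about 1 in 20. In PM of Nlrp3 WT, WT at 9 months stood apart at 61.2 CPM, and in PM of Nlrp3 KO, Nlrp3 KO APP/PS1 at 9 months did at 157 CPM. The latter library had 42 G2/M microglia beside 66 PM cells. Nlrp3 KO at 3, 6 and 9 months had 21, 17 and 15 beside 97, 79 and 56, and Nlrp3 KO APP/PS1 at 3 months 54 beside 166. In the G2/M class it stood at 206 CPM, within the Nlrp3 KO range of 142 to 247 CPM. The part of the cycle mix in its PM level was not tested. In the S class of Nlrp3 KO microglia, the library at 6 months stood apart at 0 CPM.

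The direction of the Nlrp3 KO effect on Pttg1 was opposite in cells with and without G2/M genes. In microglia the mean log2 ratio of Nlrp3 KO to Nlrp3 WT was 2.13 in the G2/M class and -3.04 in the low class, each with the same sign in 5 of 5 pairs. In the other CD45+ cells it was 1.55 and -2.002, with the same sign in 5 of 5 pairs, but in the G2/M class only through the prior count of 0.5 in the pair with APP/PS1 at 9 months, where the CPM was lower in Nlrp3 KO. These differences were not tested, since Pttg1 was chosen by the effect in microglia.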

How the results depend on the processing

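Leaving out 1 library at a time gave 1.99 to 2.87 for the log2 ratio of the G2/M class to the low class and 1.77 to 2.81 to the S class, and thinned cells gave 1.22 to the S class. These ratios are descriptions, since Pttg1 was chosen on the levels they use. Between APP/PS1 and non-diseased microglia the sign turned in HM alone (-0.15) and without PM (-0.10), with 0.01 to 0.17 when pairs were left out. Within Nlrp3 WT, the ratio of the G2/M class was 0.012 against the S class, and 0.045 and 0.022 without WT or APP/PS1 at 3 months. It was -0.71 to 0.045 when libraries were left out, lowest without WT at 9 months. The causes were not tested. Without each pair in turn, the Nlrp3 KO difference between PM and other microglia was 3.22 to 4.10, and 4.91 with G2/M cells in place of PM. The labels give no replicate numbers that groups share, so no fit with a replicate block was made, and the fits held the pair by age and genotype as a term. Where G2/M cells are few, down to 12 microglia and 8 other CD45+ cells in a library, counting error limits what can be told.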
